A study of Mus musculus with 8 samples.

Results

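The kinesins are the motor proteins that walk along microtubules or take their ends apart. The genes described here are the rows of a mouse testis RNA-seq count table whose symbol is Kif or Kifc followed by a number, without pseudogenes and without Kif3a, Kif3b and Kif3c. The rule found 41 of the 56748 gene rows: 39 motor genes, Kif1bp (which encodes a protein that binds kinesins and is not a motor) and Kif16bos (an RNA from the strand opposite Kif16b). No measured value entered the rule, though it was chosen with earlier results of these data known. The study sequenced adult testis from Ak9-/- mice (4 libraries, named knockout 1 to 4 after their labels) and from wild-type mice (4 libraries, wild type 1 to 4). No other allele, treatment, strain or exact age is given in the labels, which also do not say how the Ak9 allele was made. Ak9 encodes an adenylate kinase, and the series' title names male fertility and sperm motility as its subject.

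Kinesins hydrolyse ATP in a conserved motor domain and fall into families by where that domain sits and what the rest of the protein binds. In a testis, mitotic and meiotic divisions use kinesins that slide, bundle or shorten spindle microtubules and close the midbody. Spermatids then build a flagellum and a manchette, a transient microtubule skirt around the nucleus, which need motors for cilia and for cargo. The 39 motor genes were therefore read in 4 classes: 15 of spindle and cytokinesis, 7 of cilium and flagellum, 11 of cargo transport and 6 others, some of them non-motile. Many kinesins work in more than 1 of these places, so a class is a textbook role and not a measurement in this tissue.

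Some sequence elements that the class assignment did not use were frequent in the promoters of the spindle class. Their letters were chosen after the data were seen. RefSeq windows of 300 bases (250 before to 50 after the transcription start, build GRCm38.p6) were given for 30 of the 39 motors. The letters of the CHR (cell cycle genes homology region, TTTGAA on either strand) occurred in 11 of 14 spindle promoters, or 78.6%. They occurred in 1 of 6 ciliary, 1 of 6 transport and 1 of 4 other promoters, and in 20.2% of the 27025 genes with a window. The CCAAT box, which often lies upstream of a CHR in cell cycle genes, occurred in 9 of 14 spindle promoters (64.3%) against 41.1% of all genes. The windows of Kif23, Kifc1 and Kifc5b show both elements, with the CHR starting at positions 2, 1 and 29 counted from the annotated start. The window of Kif2b, whose product shortens microtubules, held CCAAT and no CHR letters. These 4 are shown with the matches of the searched motifs in capitals. A match on the other strand reads TTCAAA for the CHR, ATTGG for the CCAAT box and CGTCA for the core of the cAMP response element. Kif23 lies at chr9:61946750-61947049 (minus strand), Kifc1 at chr17:33890584-33890883 (minus), Kifc5b at chr17:26916841-26917140 (plus) and Kif2b at chr11:91577506-91577805 (minus).
Kif23: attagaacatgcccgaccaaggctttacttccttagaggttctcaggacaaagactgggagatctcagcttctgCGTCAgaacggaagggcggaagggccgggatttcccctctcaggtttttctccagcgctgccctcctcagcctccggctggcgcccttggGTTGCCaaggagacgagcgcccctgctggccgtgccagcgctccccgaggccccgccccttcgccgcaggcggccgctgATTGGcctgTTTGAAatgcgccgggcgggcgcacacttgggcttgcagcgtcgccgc
Kifc1: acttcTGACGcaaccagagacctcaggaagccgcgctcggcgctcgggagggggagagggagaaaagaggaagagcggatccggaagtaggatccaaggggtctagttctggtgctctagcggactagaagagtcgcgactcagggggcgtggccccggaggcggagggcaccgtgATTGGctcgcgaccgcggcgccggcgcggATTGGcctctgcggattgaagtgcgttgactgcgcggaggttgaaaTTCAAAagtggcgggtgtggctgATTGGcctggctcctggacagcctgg
Kifc5b: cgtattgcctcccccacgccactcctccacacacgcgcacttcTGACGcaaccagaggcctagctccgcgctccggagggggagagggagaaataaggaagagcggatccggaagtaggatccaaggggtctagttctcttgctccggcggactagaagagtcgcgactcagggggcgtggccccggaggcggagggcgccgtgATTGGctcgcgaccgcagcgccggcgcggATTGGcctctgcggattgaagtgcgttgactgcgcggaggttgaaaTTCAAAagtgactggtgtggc
Kif2b: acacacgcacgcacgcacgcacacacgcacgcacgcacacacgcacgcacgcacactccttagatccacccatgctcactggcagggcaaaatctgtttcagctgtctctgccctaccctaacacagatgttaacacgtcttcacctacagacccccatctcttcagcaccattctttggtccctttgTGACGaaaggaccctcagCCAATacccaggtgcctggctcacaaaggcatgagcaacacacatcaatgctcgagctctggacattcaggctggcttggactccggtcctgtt

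Other motifs were searched because of the factors that read them in ciliated cells and in spermatids. The core of the X-box, the site of RFX factors (GTTNCC), occurred in 4 of 6 ciliary promoters and in 48.8% of all genes. It also occurred in 6 of 14 spindle, 4 of 6 transport and 2 of 4 other promoters. The full cAMP response element, the site of CREM (TGACGTCA), occurred in the windows of Kif17, Kif18a and Kif5c and in 2.03% of all genes. Its core TGACG, which lies within the full element, occurred in 8 of 14 spindle, 2 of 6 ciliary, 3 of 6 transport and 1 of 4 other promoters, against 23.0% of all genes. Kif17 and Kif9, the most abundant motors of the ciliary class, are shown for these matches. The Kif17 window lies at chr4:138262001-138262300 (plus strand) and the Kif9 window, 1 of 2 for this gene, at chr9:110476708-110477007 (plus). A match is a run of letters and was not tested for binding.
Kif17: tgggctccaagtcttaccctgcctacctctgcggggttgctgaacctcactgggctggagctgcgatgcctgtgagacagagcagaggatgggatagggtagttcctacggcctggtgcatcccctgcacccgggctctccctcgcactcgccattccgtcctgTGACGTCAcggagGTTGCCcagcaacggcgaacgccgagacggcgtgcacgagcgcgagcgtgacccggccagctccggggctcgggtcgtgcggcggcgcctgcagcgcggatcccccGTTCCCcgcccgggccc
Kif9: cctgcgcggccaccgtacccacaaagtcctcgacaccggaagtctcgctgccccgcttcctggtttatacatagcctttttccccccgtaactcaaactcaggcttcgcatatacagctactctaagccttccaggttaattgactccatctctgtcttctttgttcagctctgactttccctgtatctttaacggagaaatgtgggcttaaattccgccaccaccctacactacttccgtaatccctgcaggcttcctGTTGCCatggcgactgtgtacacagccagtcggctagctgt

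**Figure D1:**
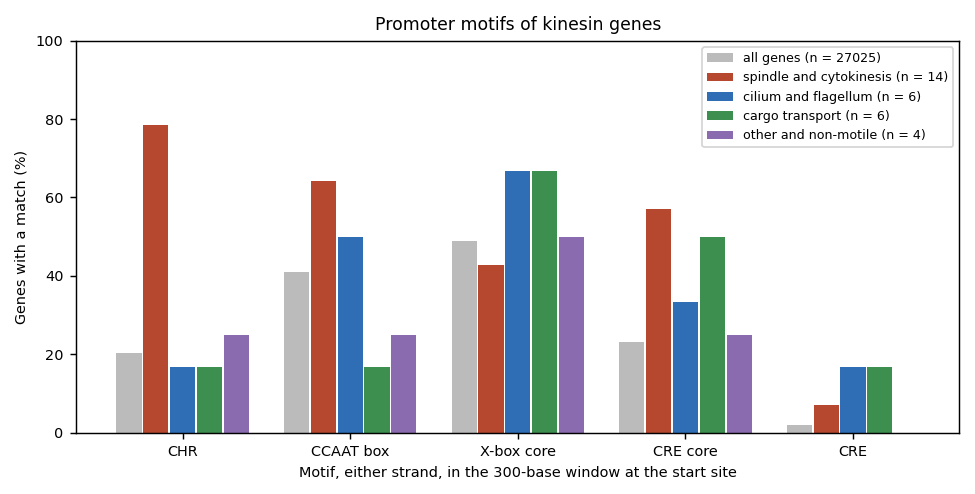
Share of genes (percent) with each searched motif in the promoter window, for the 4 kinesin classes and for all genes with a window. The CHR bar of the spindle class stands at 78.6% and that of all genes at 20.2%.

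The targeted gene was read first as a check of the labels. Ak9 had 69.3, 116, 101 and 40.6 CPM (counts after TMM scaling to an equal library size) in knockout 1 to 4 and 108, 115, 122 and 107 CPM in wild type 1 to 4. The groups overlapped. The log2 fold change was -0.47 (SE 0.25; edgeR adjusted p = 1.00), and an exact two-sided permutation test gave p = 0.143, where 0.0286 is the smallest that 4 against 4 libraries allow. The count over the whole gene thus did not set the labels apart. Which part of the gene the allele changes is not stated, so the libraries are called by their labels and every direction below rests on them. Sequencing gave 18062780 to 24415587 counts in each library, and the kinesin genes held 0.304% to 0.359% of them. Whether each library is a different animal is not stated in the labels, so the tests weigh differences against a spread between libraries that could be technical.

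Knockout 3 stood apart from the other libraries. All 6 round spermatid markers and all 6 elongating spermatid markers were below every wild-type library in knockout 3 and above every wild-type library in knockout 1 and knockout 4. The summed round spermatid markers were 903, 839, 446 and 858 CPM in knockout 1 to 4, against 652 to 761 CPM in wild type. The summed elongating spermatid markers were 16408, 13293, 6777 and 16759 CPM, against 10794 to 13908 CPM. The 7 spermatogonia markers summed to 134, 168, 207 and 128 CPM in knockout 1 to 4 and 162 to 186 CPM in wild type. In knockout 3, 4 of them were above and 1 was below every wild-type library. The 8 spermatocyte markers summed to 1306, 1441, 1473 and 1332 CPM, against 1242 to 1448 CPM. The 6 Sertoli cell markers summed to 342 CPM in knockout 3, 193 CPM in knockout 4 and 226 to 253 CPM in wild type. Epididymis markers, of a tissue outside the testis, summed to 216 CPM in knockout 3 and 36.97 CPM in knockout 4, against 6.32 and 6.36 CPM in the other knockouts and 7.41 to 9.73 CPM in wild type. Crisp1 gave 185 CPM of the sum in knockout 3 and Adam7 26.2 CPM. Of the 8 epididymis markers, 3 were above and 3 below every wild-type library in knockout 3. Over all genes tested, knockout 3 was above every wild-type library in 33.5% and below every one in 36.1%. No marker on these lists was at 0 in every library. The part of these differences in cell markers in the kinesin values below was not tested. In bulk testis, fewer cells of a type and less RNA per cell cannot be told apart.

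Among the 39 motor genes of the rule, 6 held most of the counts: Kif2b, Kif9, Kif17, Kif2c, Kif27 and Kif2a. Kinesins outside the rule, such as Kif3a, Kif3b and Kif3c, were not compared. Together the 6 genes held 65.2% ± 1.33 (SD, n = 4) of the counts of these 39 motors in wild type. Per kilobase of exon sequence, Kif2b led in wild type at 243 ± 13.0 CPM per kb (SD, n = 4). Its lowest wild-type library (227) was above every library of any other of these motors. Kif9 (79.0 ± 2.88 CPM per kb), Kif17 (76.7 ± 6.46) and Kif2c (71.5 ± 4.46) followed, with ranges across the wild-type libraries that overlapped. Kif27 came next at 61.1 ± 2.48 CPM per kb and Kif2a at 37.7 ± 1.13, each with a range below that of the gene before it. Below them stood Kif20a (17.7 ± 1.27), Kif18b (12.5 ± 0.778) and Kifc3 (11.4 ± 1.12). With the longest annotated transcript as the length, the same 6 genes led, and Kif2c stood above Kif9 and Kif17. At the other end, Kif12 had 1 count in knockout 3, 1 in wild type 1 and 0 elsewhere, and Kif28 had 1 to 10 counts per library. At these depths 0 counts leaves room for a level of up to 0.123 to 0.166 CPM, for counting error only. These 2 genes did not pass the filter on low counts, which left 39 members, 37 of them motors, for the test.

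**Figure D2:**
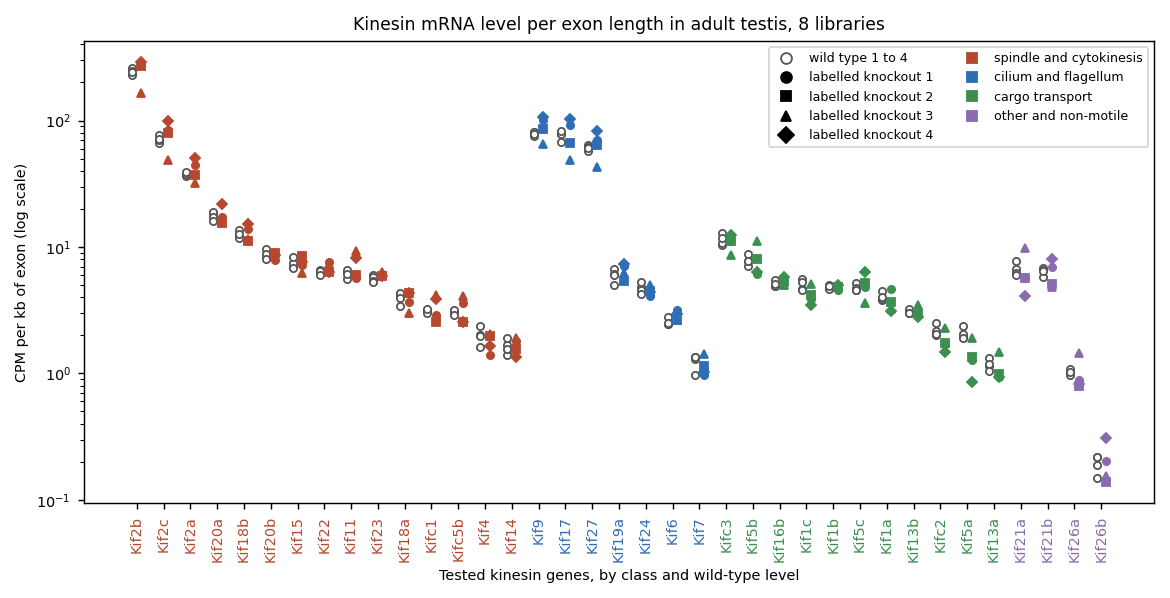
Level of each of the 37 tested motor genes in CPM per kb of exon sequence (log axis), 1 point per library, open for wild type and filled for labelled knockout, coloured by class and ordered within it by wild-type level. Kif2b stands highest at 243 CPM per kb in wild type and Kif26b lowest, and knockout 3 (triangles) lies lowest for Kif2b, Kif2c, Kif9, Kif17 and Kif27.

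No kinesin gene passed the test between the groups. With edgeR's quasi-likelihood test, 0 of 39 members had an adjusted p under 0.05, and DESeq2 and limma-voom also called 0. Over all 21805 genes tested, edgeR called 0.0183%, limma-voom 0.0183% and DESeq2 0.211%. At an unadjusted p under 0.05, edgeR found 1 member, Kif5a, or 2.56% of the 39, against 3.04% of all genes tested (1.79% lower in knockout). Of the 37 motors, 20 (54.1%) had a log2 fold change above 0, against 52.9% of all genes. Their median was 0.01, as over all genes. The median log2 fold change was 0.06 for the spindle class (11 of 15 above 0), 0.08 for the ciliary class (5 of 7), -0.07 for the transport class (3 of 11) and -0.05 for the other tested motors (1 of 4). The differences between these medians were not tested. Leaving out 1 library turned 3 of them: to -0.0093 (spindle) and -0.0531 (ciliary) without knockout 4, and to 0.0284 (other) without knockout 2. The SE of the 37 motors ran from 0.08 to 0.27, which bounds the size of change these 8 libraries could show.

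**Figure D3:**
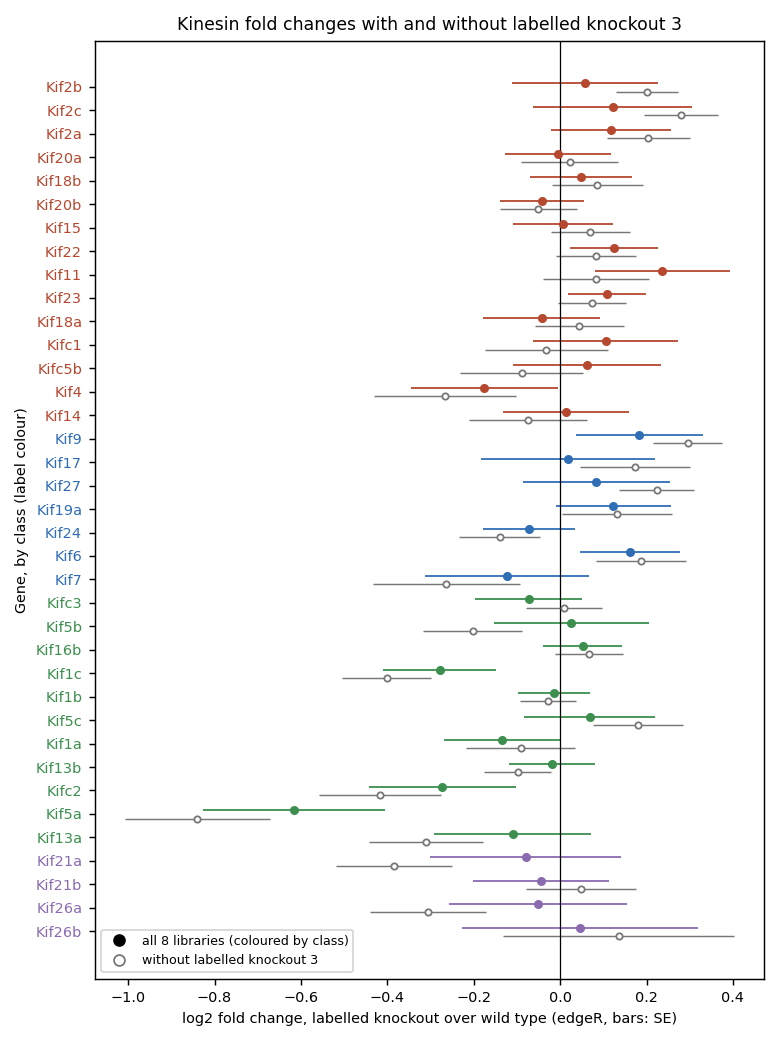
Log2 fold change of each of the 37 tested motor genes, labelled knockout over wild type, with bars of 1 SE, for all 8 libraries (filled, coloured by class) and without knockout 3 (open). With all libraries the values run from -0.62 (Kif5a) to 0.24 (Kif11), and no gene passed an adjusted p of 0.05 in either fit.

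The spindle class was led by the kinesin-13 genes, whose products do not walk but remove tubulin from microtubule ends. Kif2b, an intronless gene, had 639.7, 602, 371 and 654 CPM in knockout 1 to 4 and 581, 509, 548 and 542 CPM in wild type 1 to 4. Its log2 fold change was 0.06 (SE 0.17; edgeR adjusted p = 1.00). Knockout 3 was below every wild-type library and the other 3 knockouts above all of them. Kif2c, the depolymerase of centromeres and kinetochores, had 367, 347, 211 and 431 CPM in knockout and 338, 291, 306 and 311 CPM in wild type (0.12, SE 0.18). Kif2a, which acts at spindle poles, had 283, 235, 206 and 323 CPM in knockout and 233, 239, 243 and 249.9 CPM in wild type (0.12, SE 0.14). All 3 genes were lowest in knockout 3. The summed spermatid markers were also lowest there, and the summed spermatogonia and spermatocyte markers were highest. The spermatocyte sum was 1473 CPM there, near the 1448 CPM of wild type 2. The part of any of these markers in the values of the 3 genes was not tested.

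Other spindle motors differed in where knockout 3 stood. Kif15, Kif18a, Kif18b and Kif20a were also below every wild-type library in knockout 3. Kif11, the plus-end motor that pushes spindle poles apart, had 42.1, 44.5, 69.0 and 60.9 CPM in knockout and 41.6, 47.6, 49.0 and 45.5 CPM in wild type. It was highest in knockout 3, and its log2 fold change of 0.24 (SE 0.16) was the highest of the class with all 8 libraries. It was 0.08 without knockout 3 and 0.07 with voom quality weights. Kif22, a chromosome arm motor, had 37.3, 30.8, 35.9 and 31.3 CPM in knockout and 31.2, 32.1, 31.6 and 29.3 CPM in wild type (0.12, SE 0.10). Kif23, the motor of the centralspindlin complex at the midbody, had 48.3, 46.4, 50.03 and 46.8 CPM in knockout and 47.6, 46.1, 42.4 and 41.5 CPM in wild type (0.11, SE 0.09). The groups overlapped for all 3 genes. Across the 15 spindle genes, knockout 3 was below every wild-type library in 7 and above every one in 6, against 36.1% and 33.5% of all genes tested. The remaining motors, Kif4, Kif14, Kif15, Kif18a, Kif18b, Kif20a, Kif20b, Kifc1 and Kifc5b, had wild-type means of 10.7 to 81.2 CPM and log2 fold changes of -0.18 (Kif4) to 0.11 (Kifc1).

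Kifc1 and Kifc5b encode minus-end motors that focus spindle poles and, in spermatids, work around the nucleus and acrosome. Their transcripts are 96.8% identical over 2312 aligned bases, so the counting could have split reads between them, and each value alone is uncertain. Summed with the pseudogene Kifc5c-ps, they had 24.1, 19.2, 30.8 and 23.96 CPM in knockout and 23.5, 22.9, 23.0 and 22.7 CPM in wild type (0.09, SE 0.14; edgeR adjusted p = 1.00). The summed level was tight in wild type and spread in knockout, with knockout 3 highest and knockout 2 lowest. Gm20763 (92.0% over 1421 aligned bases) and Gm21358 (91.6% over 1682) also resemble Kifc1 and were not in the sum. Kif2c resembles Gm4961 (91.7% over 1443 aligned bases) and Kif11 resembles Gm15697 (90.6% over 1691), so their values carry a like uncertainty. Other genes overlap the exons of Kif20a (29.3% of its exon length), Kif2a (19.2%), Kif4 (15.1%), Kif7 (20.3%) and Kifc3 (27.5%), and the strand setting of the counting is not known here.

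The 28 genes fixed as partners of these motors at the spindle and midbody, such as the Aurora kinases and the chromosomal passenger complex, were all tested. 25 were above 0 and 3 below, with a median log2 fold change of 0.11, and 0 passed the edgeR test (0 at an unadjusted p under 0.05). Over all genes tested, 52.9% were above 0 and 3.04% had an unadjusted edgeR p under 0.05. Ect2, the exchange factor recruited by centralspindlin for cytokinesis, had the smallest p, with a log2 fold change of 0.16 (SE 0.10).

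In the ciliary class, 3 genes held most of the counts. Kif9, a motor of the sperm axoneme's central apparatus, had 436, 370.4, 281 and 454 CPM in knockout 1 to 4 and 351, 324, 347 and 335 CPM in wild type 1 to 4. Its log2 fold change was 0.18 (SE 0.15; edgeR adjusted p = 1.00), with 3 knockouts above every wild-type library and knockout 3 below. Kif17, a motor of cilia that also binds the CREM cofactor Fhl5 (ACT) in round spermatids, had 423, 306, 224 and 469.7 CPM in knockout and 359, 309.7, 356 and 379.8 CPM in wild type (0.02, SE 0.20). Kif27, a relative of Kif7 tied to motile cilia, had 367, 331, 224 and 428 CPM in knockout and 333, 302, 323 and 317 CPM in wild type (0.08, SE 0.17). These 3 genes were lowest in knockout 3 and highest in knockout 4.

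The low ciliary motors differed less between the knockout libraries, though not between the wild-type ones. Kif6 had 19.0, 16.02, 15.8 and 17.9 CPM in knockout and 16.7, 14.8, 14.8 and 15.1 CPM in wild type (0.16, SE 0.12). Kif19a, whose product limits the length of motile cilia, had 28.5, 21.7, 25.2 and 29.9 CPM in knockout and 26.99, 20.4, 25.0 and 24.3 CPM in wild type (0.12, SE 0.13). Both overlapped between the groups. Kif24, which restrains cilium assembly at the centriole, had 32.5 to 40.1 CPM in knockout and 34.1 to 42.0 CPM in wild type. Kif7, the ciliary regulator of the Hedgehog pathway, had 4.42 to 6.56 CPM in knockout and 4.44 to 6.20 CPM in wild type.

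Of the 8 genes fixed as germ cell partners of Kif17 and Kif9, all were tested, 7 were above 0 and 0 passed the edgeR test (0 at an unadjusted p under 0.05), with a median log2 fold change of 0.08. Spef2, a central apparatus protein, had the smallest p, with 0.13 (SE 0.13). Fhl5 had 294, 297, 109 and 288 CPM in knockout and 216 to 255 CPM in wild type, and Crem had 254, 261, 139 and 258 CPM against 202 to 233 CPM. These 2 were named for their tie to Kif17 and not by their p. Both were lowest in knockout 3, like Kif17, but above every wild-type library in knockout 2, where Kif17 was not. Of the 14 Hedgehog genes fixed around Kif7, 12 were tested, 2 were above 0 and 10 below, with a median of -0.18. None of them passed the edgeR test (0 at an unadjusted p under 0.05). For both lists, the shares over all genes tested were 52.9% above 0 and 3.04% at an unadjusted edgeR p under 0.05. Boc, a co-receptor of the pathway, had the smallest p, with -0.27 (SE 0.13). The Leydig cell markers, of the cells that answer Desert hedgehog in testis, summed to 1507, 1394, 1738 and 793 CPM in knockout and 1581 to 1893 CPM in wild type, and their part in the Hedgehog values was not tested.

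The cargo class held the one gene with an unadjusted p under 0.05. Kif5a, a heavy chain of conventional kinesin best known from neurons, had 8.93, 9.41, 13.3 and 5.95 CPM in knockout 1 to 4 and 13.5, 16.5, 14.2 and 13.4 CPM in wild type 1 to 4. All 4 knockouts were below all 4 wild types, with knockout 3 just under the lowest wild type and knockout 4 farthest down. Its log2 fold change was -0.62 (SE 0.21), its unadjusted edgeR p was 0.0137 and its adjusted p was 1.00. Kif5a was the single motor of 37 whose groups did not overlap, against 2.30% of all genes tested (1.32% lower in knockout). The 6 neuron markers summed to 142, 141, 112 and 145 CPM in knockout 1 to 4 and 128 to 142 CPM in wild type. In knockout 3, 3 of the 6 were below and 1 was above every wild-type library, against 36.1% and 33.5% of all genes tested. Of the 5 neuron markers tested, 2 had a log2 fold change above 0 and 3 below. 1 of these 3 had an unadjusted edgeR p under 0.05, as 1.79% of all genes did in that direction. The part of neuron markers in the Kif5a values was not tested.

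The other 2 conventional heavy chains overlapped between the groups. Kif5b, the ubiquitous heavy chain, had 48.5, 64.4, 89.6 and 50.4 CPM in knockout and 56.0, 69.7, 61.4 and 61.3 CPM in wild type (0.03, SE 0.18), highest in knockout 3. Kif5c had 34.4, 36.8, 26.0 and 45.6 CPM in knockout and 32.6 to 36.8 CPM in wild type (0.07, SE 0.15), lowest in knockout 3. Among the knockouts, Kif5a and Kif5b were both highest in knockout 3, and Kif5c was not.

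Among the remaining transport motors, Kif1c, which carries vesicles, had 28.3, 30.1, 36.8 and 25.1 CPM in knockout and 33.7, 33.4, 40.4 and 38.3 CPM in wild type (-0.28, SE 0.13). Kifc2, a minus-end motor, had 6.76, 6.85, 9.03 and 5.83 CPM in knockout and 8.55, 7.90, 8.09 and 9.90 CPM in wild type (-0.27, SE 0.17). In both genes 3 knockouts lay below every wild-type library and knockout 3 lay among them. Kifc3, a minus-end motor at cell junctions, had 59.3, 59.2, 46.0 and 65.9 CPM in knockout and 68.2, 54.7, 57.3 and 62.0 CPM in wild type (-0.07, SE 0.12). Kif16b, which carries early endosomes, had 46.2, 48.4, 45.2 and 52.1 CPM in knockout and 44.8, 49.3, 44.6 and 46.2 CPM in wild type (0.05, SE 0.09). The groups overlapped for these 4 genes. Kif1b, a motor of mitochondria and vesicle precursors, was the steadiest motor by SE, at 84.5 ± 2.77 CPM in knockout and 85.4 ± 2.50 CPM in wild type (SD, n = 4 each; -0.01, SE 0.08). Kif1a, Kif13a and Kif13b had log2 fold changes of -0.13, -0.11 and -0.02.

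The 25 genes fixed as kinesin light chains and cargo adaptors were all tested. 14 were above 0 and 11 below, the median log2 fold change was 0.01, and 0 passed the edgeR test (0 at an unadjusted p under 0.05). Of all genes tested, 52.9% were above 0 and 3.04% had an unadjusted edgeR p under 0.05. Plekhm2, an adaptor that ties lysosomes to conventional kinesin, had the smallest p, with 0.16 (SE 0.14). Kif1bp, a member here and also on that list, had 67.7, 54.2, 47.7 and 68.6 CPM in knockout and 51.4 to 58.0 CPM in wild type (0.13, SE 0.13).

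The last class holds motors outside these roles. Kif21a, a motor that pauses microtubule growth, had 36.6, 36.8, 63.4 and 26.6 CPM in knockout and 43.1, 50.5, 40.3 and 38.8 CPM in wild type (-0.08, SE 0.22). On the scale of log2(CPM + 0.5), Kif21a spanned the widest range among the knockout libraries of any member, 1.24 against 0.37 in wild type. Kif16bos followed closely at 1.215. The added 0.5 narrows the range of low genes such as Kif16bos most, so the order of these genes depends on it. Kif21b, its close relative, had 84.9, 62.3, 58.5 and 97.8 CPM in knockout and 82.7, 70.4, 80.4 and 79.3 CPM in wild type (-0.04, SE 0.16). The 2 relatives were at opposite ends in knockout 3, where Kif21a was above and Kif21b below every wild-type library. Kif26a, a kinesin without ATPase activity, had 6.18, 5.50, 10.02 and 5.66 CPM in knockout and 6.95, 7.54, 6.71 and 7.15 CPM in wild type (-0.05, SE 0.21). Kif26b had 2.03 to 4.55 CPM in knockout and 2.20 to 3.21 CPM in wild type. Kif16bos, the opposite-strand RNA, had 5.81, 2.56, 2.22 and 3.21 CPM in knockout and 2.24, 2.87, 1.90 and 2.65 CPM in wild type (0.52, SE 0.31), with knockout 1 above all others. Its log2 fold change was 0.13 without knockout 1. Its annotated exons and those of Kif16b share no bases.

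**Figure D4:**
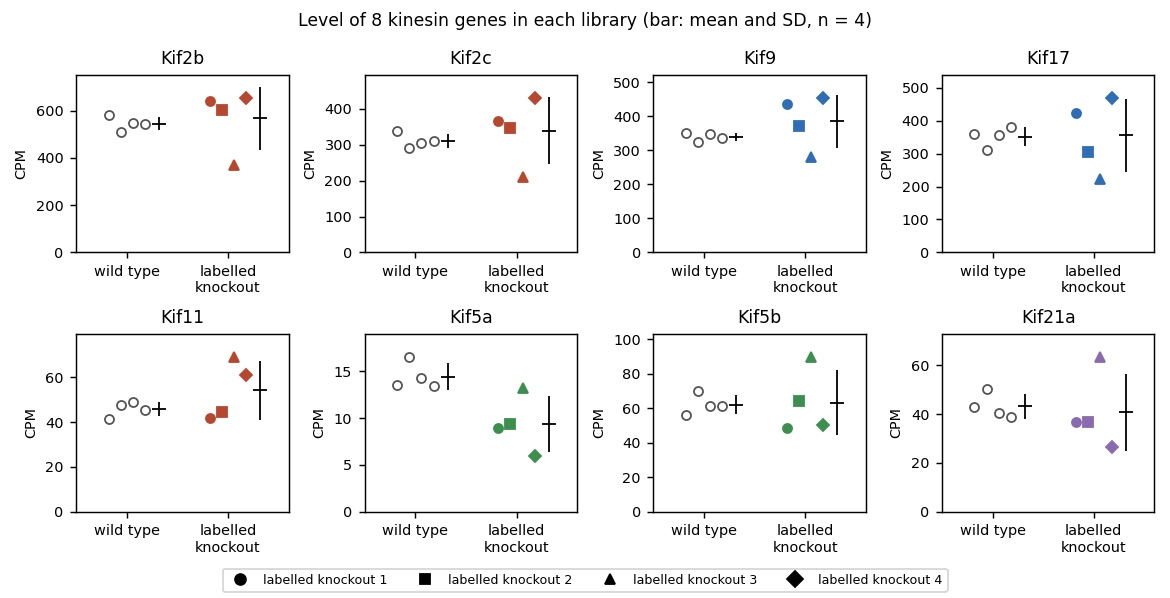
CPM of 8 kinesin genes in each library (1 point per library, open for wild type and filled for labelled knockout), with bars for the mean and SD of each group. Knockout 3 (triangles) is the lowest knockout for Kif2b, Kif2c, Kif9 and Kif17 and the highest for Kif11, Kif5a, Kif5b and Kif21a.

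The knockout libraries differed among themselves in the kinesin genes at about the rate seen over all genes. In 34 of 37 motors (91.9%) the SD of log2(CPM + 0.5) was larger among knockout than among wild-type libraries, against 84.9% of all genes tested. The median SD of the motors was 0.25 in knockout and 0.10 in wild type, against 0.30 and 0.13 over all genes. In 8 motors (21.6%) knockout 3 was below and knockout 1 and 4 were above every wild-type library, which held for 14.7% of all genes. They were the kinesin-13 genes Kif2a, Kif2b and Kif2c, the ciliary genes Kif9, Kif17 and Kif27, and Kif18b and Kif21b. In 5 motors (13.5%) the order was the reverse, which held for 12.9% of all genes: Kif5b, Kif13a, Kif13b, Kif21a and Kif26a. The 6 leading kinesins held 69.8%, 67.0%, 57.0% and 70.5% of motor counts in knockout 1 to 4 and 63.3% to 66.1% in wild type. The transport class took 11.1%, 12.9%, 16.5% and 10.5% of motor counts in knockout 1 to 4 and 13.2% to 13.9% in wild type, and such shares move whenever the leading genes do.

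**Figure D5:**
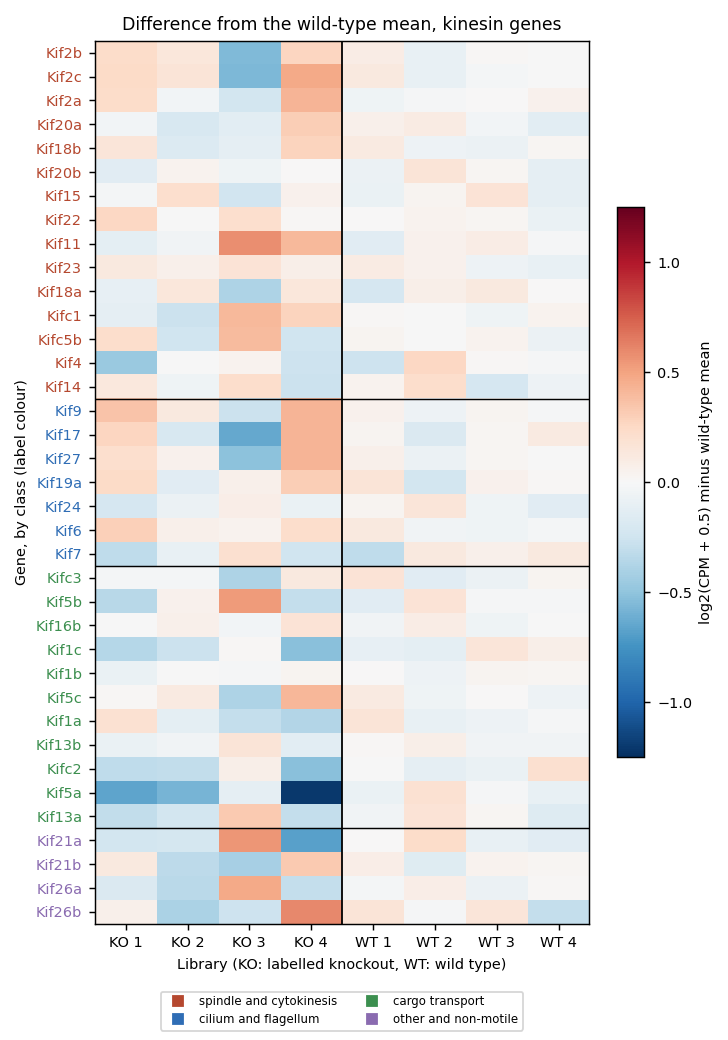
Difference of each of the 37 tested motor genes (rows, by class) from its wild-type mean in each library (columns), in log2(CPM + 0.5), red above and blue below. By the side of the wild-type mean, knockout 3 runs against both knockout 1 and knockout 4 in 10 motors where it is blue, such as Kif2a, Kif2b, Kif2c, Kif9, Kif17 and Kif27. It does so in 10 where it is red, such as Kif5b, Kif13a, Kif13b, Kif21a and Kif26a. This rule is looser than that of the text, and its share over all genes was not computed.

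Without knockout 3, 0 of 39 members passed the edgeR test (0.158% of all genes did), and 12 (30.8%) had an unadjusted p under 0.05, against 19.0% of all genes tested in that fit. Kif5a then had a log2 fold change of -0.84 (SE 0.17; edgeR adjusted p = 0.0759), the smallest adjusted p of any member in any of the fits run. The other motors were Kif1c, Kifc2, Kif13a, Kif21a and Kif26a, which were lower in knockout, and Kif2b, Kif2c, Kif9 and Kif27, which were higher. Kif1c stood at -0.40 (SE 0.10) and Kif9 at 0.30 (SE 0.08). Round and elongating spermatid markers were above every wild-type library in knockout 1 and 4 and Leydig markers were below every wild-type library in knockout 4 for 6 of 6 genes, and their part in these values was not tested.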

How the data were processed

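RNA from adult mouse testis was sequenced with an Illumina TruSeq kit, per the labels' protocols. The authors deposited raw counts for each Ensembl gene, and these were used. The submitters' processing notes name Trimmomatic, STAR, featureCounts and DESeq2 with GRCm39. Not given in the sources used here are their versions, the strand setting and how reads that match more than 1 place were counted. Identifiers were paired with symbols through GENCODE M21 (52073 of 56748). The 4675 unpaired ones held 0.411% to 1.07% of counts. 0 columns were left without a sample.

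filterByExpr (minimum count 10, minimum total 15) left 21805 genes, fitted with edgeR 4.0.16 (TMM, quasi-likelihood test, no covariate, Benjamini-Hochberg adjustment, threshold 0.05; R 4.3.3). CPM are TMM-scaled. A log2 fold change is labelled knockout over wild type, and its SE is its size divided by the square root of F. DESeq2 1.42.0 and limma 3.58.1 (voom) were alternatives, with other size factors and filters, a replicate block and each library left out. Levels per kb use the union of exons in GENCODE M21 (GRCm38). Similar transcripts were found with blastn 2.17.0. The test was checked on simulated data.

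The members and gene lists were chosen with earlier results of these data known. Named in full were, per class, the 3 genes with the smallest p and the 3 with the highest wild-type level per kb, the 3 members with the widest knockout range and, from each partner list, the gene with the smallest p. Kifc1 with Kifc5b, Kif5c, Kif1b, Kif7, Kif24, Kif26b, Kif1bp, Fhl5, Crem and Klc3 were added after their values were seen. The letters of the promoter motifs and the summing of Kifc1 with Kifc5b and Kifc5c-ps were also chosen after the data were seen. Kinesin proteins were not analysed here.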

Additional observations from a re-analysis of the deposited data

Results flagged for a closer look

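Of the 52 groups of 4 values examined (the named members and the shares of motor counts), 2 held a library far from the other 3 by Dixon's criterion, which chance meets in about 1 in 20 groups. Kif6 was at 16.7 CPM in wild type 1, where the other wild-type libraries had 14.8 to 15.1 CPM. Kif26a was at 10.02 CPM in knockout 3, where the other knockout libraries had 5.50 to 6.18 CPM.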

How the results depend on the processing

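In each of the 16 fits 0 kinesin genes passed an adjusted p of 0.05. Over all genes, 4 were called with edgeR, 26 without the filter on low counts, 46 with DESeq2, 14 with voom quality weights and 3 to 35 with 1 library left out (33 without knockout 1, 35 without knockout 3, 33 without knockout 4). Members at an unadjusted p under 0.05 numbered 1, against 3.04% of all genes tested. There were 2 without the filter (3.37% of all genes) and 5 with voom quality weights (11.4%). With 1 library left out there were 1 to 12 (1.99% to 19.0% of all genes), with 3 without knockout 1 (3.88%) and 12 without knockout 3 (19.0%). The deviations of samples with the same replicate number correlated at 0.13, 0.05, -0.05 and 0.04 for numbers 1 to 4. Knockout 1 and 2 correlated best with the wild type of their own number, and knockout 3 and 4 with another. With 4 libraries per group, such values cannot decide whether the numbers pair. With the replicate block, 2 members had an unadjusted p under 0.05 (2.74% of all genes did), Kif17 was at -0.0338 and Kif5b at -0.0143. Of 317 alternative values of the 23 named members, 23 turned direction, none of them called. Kifc1 and Kifc5b entered this count only with their summed counts. Their own values also turned without knockout 3, from 0.1053 to -0.0318 (Kifc1) and from 0.0618 to -0.0885 (Kifc5b), and are not in the count. Kif17 was at -0.0348 and Kif5b at -0.0143 with voom, and Kif5b at -0.159 and Kif21b at 5e-04 with voom quality weights. With 1 library left out, the log2 fold change ran from -0.15 to 0.17 for Kif17, -0.38 to 0.0788 for Kif21a, -0.19 to 0.0484 for Kif21b, -0.31 to 0.0328 for Kif26a, -0.0531 to 0.22 for Kif27, -0.0011 to 0.20 for Kif2a, -0.0209 to 0.20 for Kif2b, -0.0169 to 0.28 for Kif2c, -0.20 to 0.13 for Kif5b and -0.14 to 0.0093 for Kifc3. For Kif5a it ran from -0.84 to -0.45. The cause of these changes was not tested.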

Other observations

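Kif5a lies on chromosome 10, as Ak9 does, with 775 tested genes between them in the GENCODE M21 order. With 4 tested genes between them, Slc26a10 is a neighbour of Kif5a and was 1 of the 4 genes that edgeR called, at a log2 fold change of 2.20. Of the 20 nearest tested neighbours of Kif5a, 11 were below 0. An unadjusted edgeR p under 0.05 was found for 2, Slc26a10 itself and Agap2 (-0.63, SE 0.19). Over all genes tested, 52.9% were above 0 and 3.04% had an unadjusted edgeR p under 0.05. Whether the region as a whole differs was not tested. These neighbours were chosen after their values were seen. Klc3, the kinesin light chain known from sperm tails, had 40.1, 27.3, 15.8 and 40.9 CPM in knockout 1 to 4 and 25.9 to 32.9 CPM in wild type.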
